A study of Mus musculus with 6 samples.

Results

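The genes described here are 33 redox and antioxidant genes, chosen by symbol from the 55291 gene names of a count table of splenic natural killer (NK) cells. They encode the transcription factor NRF2 and its inhibitor, the enzymes of the glutathione and thioredoxin systems, peroxiredoxins, superoxide dismutases, catalase, ferritin chains, metallothioneins and sources of NADPH. All 33 had a row in the table, 32 passed the filter on low counts, and Mt2 did not. NK cells came from S303/7A mice, whose heat shock factor 1 (HSF1) carries serine-to-alanine mutations at the sites that give the allele its name, and from wild-type (WT) mice, 3 mice of each genotype, at steady state. The series text calls the mutant mice HSF1-enhanced. DX5 bead enrichment of splenocytes came before a sort for CD49b+ CD3e- cells, and each mouse gave 1 library. The labels speak of mice bearing the mutations and of no restriction to NK cells, and age, sex, strain background and zygosity were not used here.

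NRF2 (gene Nfe2l2) is held by KEAP1 and degraded until electrophiles or peroxides modify KEAP1. It then enters the nucleus and binds antioxidant response elements in front of genes for glutathione synthesis, thioredoxin reductase, quinone reductase and haem oxygenase. Peroxiredoxins and glutathione peroxidases reduce hydrogen peroxide, and thioredoxin and glutathione, recharged by NADPH-dependent reductases, supply the electrons. HSF1 drives chaperone genes through heat shock elements. The comparison asks how these defences differ between resting NK cells with S303/7A and WT HSF1.

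Promoters show which members carry such elements. The 250 bases before the RefSeq gene start were found for 28 of the 33 members and are printed 5′ to 3′ (RefSeq, GRCm38.p6) for the gene that differed between the genotypes, for its closest cytosolic relative, for an NRF2 target and for the gene that split the S303/7A libraries. Capitals mark the antioxidant response element core, TGACNNNGC or its reverse complement GCNNNGTCA.
Prdx2 (chr8:84969372-84969621, plus strand): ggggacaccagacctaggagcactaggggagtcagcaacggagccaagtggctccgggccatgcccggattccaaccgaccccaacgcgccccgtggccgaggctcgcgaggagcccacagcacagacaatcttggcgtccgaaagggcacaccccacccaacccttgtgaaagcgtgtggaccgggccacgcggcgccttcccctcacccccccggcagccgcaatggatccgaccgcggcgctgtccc
Prdx1 (chr4:116685349-116685598, plus strand): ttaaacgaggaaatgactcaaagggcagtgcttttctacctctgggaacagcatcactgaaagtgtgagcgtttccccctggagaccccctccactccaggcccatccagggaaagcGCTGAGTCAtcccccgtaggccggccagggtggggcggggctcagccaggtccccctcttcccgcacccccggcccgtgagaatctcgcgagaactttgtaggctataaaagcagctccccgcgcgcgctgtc
Txnrd1 (chr10:82858956-82859205, plus strand): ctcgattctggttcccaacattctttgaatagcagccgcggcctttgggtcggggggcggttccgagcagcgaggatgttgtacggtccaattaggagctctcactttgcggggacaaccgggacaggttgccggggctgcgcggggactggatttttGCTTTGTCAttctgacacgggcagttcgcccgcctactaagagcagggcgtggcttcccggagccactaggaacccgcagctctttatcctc
Glo1 (chr17:30612660-30612909, minus strand): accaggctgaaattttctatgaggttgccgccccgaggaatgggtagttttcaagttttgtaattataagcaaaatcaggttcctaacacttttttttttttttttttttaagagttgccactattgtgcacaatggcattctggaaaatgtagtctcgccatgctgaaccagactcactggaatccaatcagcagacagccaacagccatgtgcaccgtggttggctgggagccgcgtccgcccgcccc
That core was found in 7 of the 28 members (Nfe2l2, Gclm, G6pdx, Prdx1, Sod1, Txnrd1 and Mt2), or 25.0%, and in 11.5% of the 27025 genes with such a window. Gsr, Nnt, Prdx6, Gclc and Hmox1 had no entry. Txnrd1 has several RefSeq starts, and the window printed is the one that holds the core. The RefSeq start of Glo1 lies inside the longer gene span that GENCODE gives below. A heat shock element of 3 units, with GAA and TTC alternating and 2 bases between them on either strand, was found in 0 of the 28 and in 0.514% of the 27025 genes. No match says only that these letters are absent from these windows, and a match is not a binding site. The Prdx2 and Glo1 windows held neither motif.

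Total counts ranged from 43189163 to 47248039 in S303/7A and from 53845572 to 72736406 in WT, so S303/7A libraries were shallower, and all levels below are CPM, counts relative to the library total after TMM scaling. Of 16480 genes tested with edgeR's quasi-likelihood test, 60 passed an adjusted p of 0.05, which is 0.364% (22 higher, 0.133%, and 38 lower, 0.231%). All 10 NK cell markers were tested, with 1 called lower, and their summed level was 25913 to 26980 CPM in S303/7A and 24800 to 28687 CPM in WT. Summed platelet markers (8 of 8 with a log2 fold below 0, none called) were at 101 to 145 CPM in S303/7A and 217 to 243 CPM in WT, and basophil markers (8 of 8 below 0, 1 called lower) at 199 to 297 CPM in S303/7A and 329 to 670 CPM in WT. Neutrophil markers (5 of 8 tested, 3 below 0) summed to 33.9 to 39.6 CPM in S303/7A and 50.4 to 75.3 CPM in WT, most of it Cxcr2. S100a8, S100a9, Ngp, Camp and Ltf of that list did not follow its sum, and each was highest in S303/7A 6. Each gene of the marker lists had a count in at least 1 of the 6 libraries. In bulk RNA, fewer cells of a type and less RNA per cell cannot be told apart.

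Of the 32 tested members, 1 rose in S303/7A, Prdx2, and none fell. This is 1 member called against the 0.364% called among all tested genes. At an unadjusted p under 0.05 there were 3 members, Prdx2 and Glo1 higher and Gpx1 lower, against 9.68% of all tested genes (4.21% higher and 5.47% lower). The genotypes did not overlap for 3 higher members (Prdx2, Glo1 and Txnrd1) and 2 lower members (Gpx1 and Txnrd2), against 7.64% higher and 8.37% lower among all genes. Log2 folds of S303/7A over WT were above 0 for 18 members, against 51.7% of all tested genes, with a median of 0.014 over the members and 0.0088 over all tested genes. Regardless of direction, the median size of the log2 fold was 0.075 over the members and 0.18 over all tested genes. Folds smaller than 0.2 on the log2 scale were fitted for 25 members, and standard errors ran from 0.06 to 0.59 with a median of 0.10. Adding the members together gave 3856 to 4002 CPM in S303/7A and 3795 to 3889 CPM in WT.

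**Figure D1:**
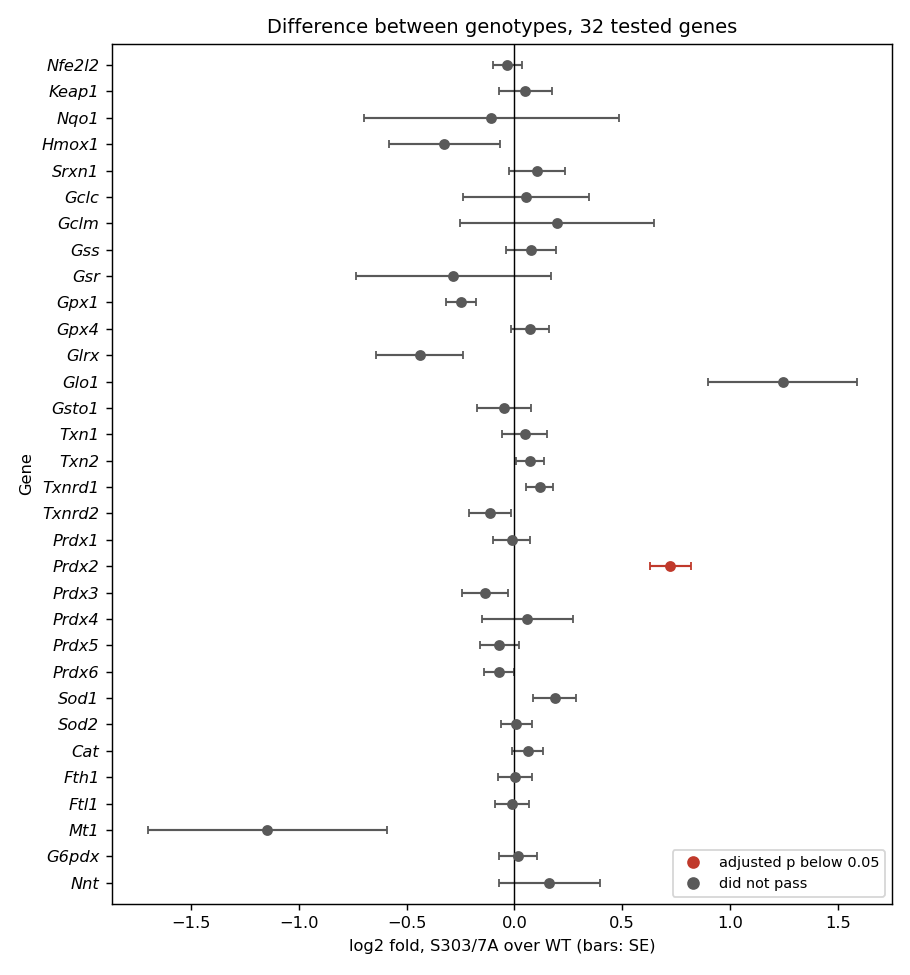
Fitted log2 fold of S303/7A over WT for the 32 tested genes, with bars for the standard error and genes in order of role. Prdx2, at 0.72, is the gene that passed the test, Glo1 at 1.24 and Mt1 at -1.15 have wide bars, and 25 genes lie within 0.2 of 0.

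The peroxiredoxins, which reduce hydrogen peroxide with a reactive cysteine, held the gene that passed. Prdx2, a cytosolic peroxiredoxin that is abundant in red blood cells (chromosome 8, 84969587 to 84974834, plus strand, GRCm38), measured 95.2, 109.9 and 106 CPM in S303/7A 5, 6 and 7, against 65.9, 65.8 and 56.8 CPM in WT 1, 2 and 3. Every S303/7A library lay above every WT library. The means were 104 ± 7.62 CPM in S303/7A and 62.8 ± 5.24 CPM in WT (SD, n = 3 each), a 1.65-fold difference. The fitted log2 fold came to 0.72 ± 0.10 (SE; edgeR's quasi-likelihood test, adjusted p 0.0462). Prdx2 also passed in DESeq2 (adjusted p 7.0e-08), in limma-voom (0.0496) and in edgeR with no filter on low counts (0.00754), which called 0.502% of 34067 genes. It passed in none of the 6 edgeR fits that each left out 1 library, where the log2 fold stayed between 0.66 and 0.78 and the adjusted p lay between 0.101 and 0.20.

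Red cell markers were low. The 9 genes of that list (8 tested, 4 of them below 0, none called) summed to 11.7, 13.6 and 9.44 CPM in S303/7A and to 24.7, 18.7 and 17.9 CPM in WT. Every S303/7A sum was below every WT sum, and Car1 and Klf1 made up most of each WT sum. The alpha and beta globin genes reached at most 1.67 CPM in any library and did not follow the sum. Hba-a1 was at 0.980, 1.11 and 1.33 CPM in S303/7A, against 0.602, 1.40 and 0.707 CPM in WT. Hbb-bs was at 0.070, 1.67 and 1.65 CPM in S303/7A, against 0.682, 1.31 and 0.367 CPM in WT. What part red cells had in the Prdx2 values was not tested. A pair of genes overlaps Prdx2 on the opposite strand, and without the strand setting of the counting their reads cannot be told apart from those of Prdx2 in the overlap. Junb, a subunit of AP-1, was at 219.7, 218 and 213 CPM in S303/7A, against 171, 260.0 and 188 CPM in WT, and Rnaseh2a, a subunit of ribonuclease H2, at 39.8 to 48.9 CPM in S303/7A and 38.2 to 47.0 CPM in WT. Both overlapped between the genotypes, with log2 folds of 0.07 ± 0.15 and 0.05 ± 0.12 (SE). Prdx2 also shares 96.3% of 597 bases with the processed pseudogene Tdpx-ps1, which was not analysed here.

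The other peroxiredoxins did not pass. Prdx1, the other abundant cytosolic form, was at 255, 295 and 251 CPM in S303/7A, against 272, 252 and 284 CPM in WT, with a log2 fold of -0.01 ± 0.09 (SE). The values of the genotypes were interleaved, in the gene whose promoter holds the core printed above. No other member of the family separated the genotypes. Prdx3, the mitochondrial form, ranged from 69.6 to 88.5 CPM in S303/7A and from 83.4 to 91.8 CPM in WT (log2 fold -0.14 ± 0.11). Prdx4, the form of the endoplasmic reticulum, ranged from 7.90 to 11.2 CPM in S303/7A and from 7.26 to 9.86 CPM in WT (0.06 ± 0.21). Prdx5, found in several compartments, had 86.6 to 102 CPM in S303/7A and 95.7 to 107 CPM in WT (-0.07 ± 0.09), and Prdx6, which uses glutathione, 166 to 172 CPM in S303/7A and 166 to 186 CPM in WT (-0.07 ± 0.07). Prdx1 shares 98.3% and 97.5% of 597 bases with 2 processed pseudogenes, and Prdx5 overlaps Trmt112, so their counts carry that uncertainty. Srxn1, the sulfiredoxin that repairs overoxidised peroxiredoxins, was at 42.3, 50.9 and 38.0 CPM in S303/7A, against 43.1, 39.3 and 39.6 CPM in WT. Its log2 fold was 0.11 ± 0.13 (SE).

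Per kb of principal transcript, a scale on which genes can be compared, Prdx1 led the family at 116 ± 10.5 CPM per kb in S303/7A and 117 ± 7.14 in WT (SD, n = 3 each), and Prdx4 was lowest at 9.21 ± 1.85 in S303/7A and 8.83 ± 1.35 in WT. Prdx2 was at 59.1, 68.2 and 65.9 CPM per kb in S303/7A, against 40.9, 40.8 and 35.2 in WT. Prdx3 was at 52.5, 59.9 and 47.1 in S303/7A and at 56.6, 62.1 and 56.4 in WT. Prdx2 thus ranked above Prdx3 in each S303/7A library and below it in each WT library. The order depends on the length used. With all annotated exons merged, Prdx2 averaged 34.0 CPM per kb in S303/7A and 20.6 in WT, below Prdx3 in both, at 53.2 in S303/7A and 58.4 in WT. Per kb of principal transcript, Prdx5 averaged 75.5 ± 6.14 CPM in S303/7A and 79.3 ± 4.58 in WT, and Prdx6 70.5 ± 1.38 in S303/7A and 74.0 ± 4.33 in WT. Prdx5 lay below Prdx6 in S303/7A 5 and above it in the other libraries of both genotypes.

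**Figure D2:**
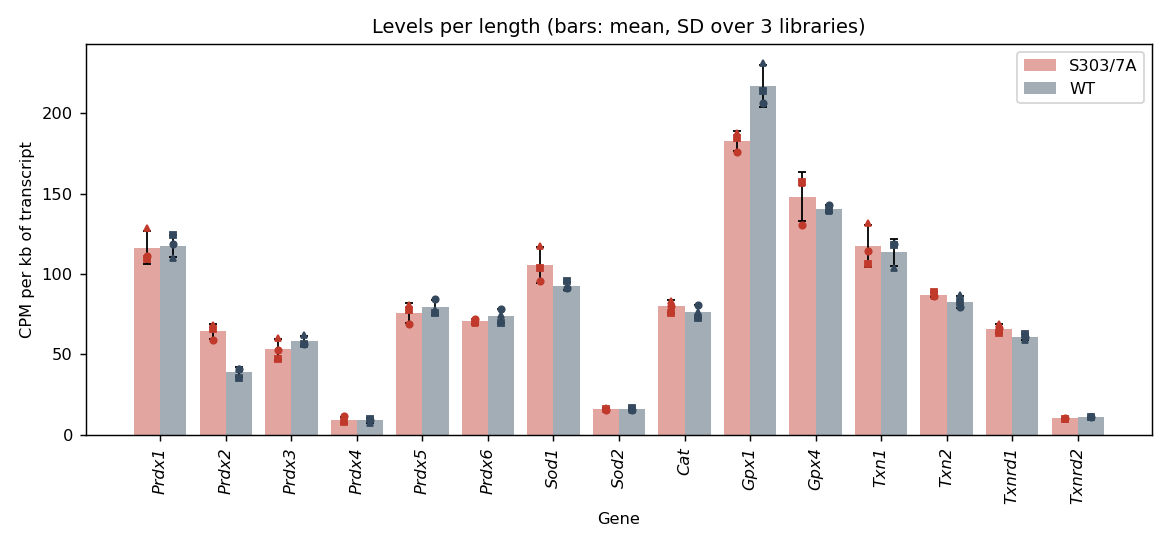
Level of 15 peroxiredoxin, dismutase, catalase, peroxidase and thioredoxin genes in CPM per kb of principal transcript, with S303/7A bars to the left of WT bars. Bars are means, whiskers the SD over 3 libraries and points the libraries. Prdx2 stands at 64.4 in S303/7A and 39.0 in WT, while Prdx1 stands at 116 in S303/7A and 117 in WT.

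Among enzymes that use glutathione, Glo1 had the largest log2 fold of any member and did not pass. Glo1, glyoxalase 1, detoxifies methylglyoxal, a by-product of glycolysis (chromosome 17, 30584936 to 30626871, minus strand, GRCm38). It measured 139, 51.4 and 139.9 CPM in S303/7A 5, 6 and 7, against 46.3, 47.5 and 45.6 CPM in WT 1, 2 and 3. S303/7A 5 and 7 lay far above WT and S303/7A 6 lay just above it. The highest library was 2.72 times the lowest within S303/7A and 1.04 times within WT. The fitted log2 fold came to 1.24 ± 0.34 (SE; edgeR's quasi-likelihood test, adjusted p 0.288). Without S303/7A 6, a fit that called 0.324% of all genes, it was 1.58 ± 0.08 (adjusted p 0.00225), and over all alternatives the adjusted p ranged from 0.00225 to 0.640.

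**Figure D3:**
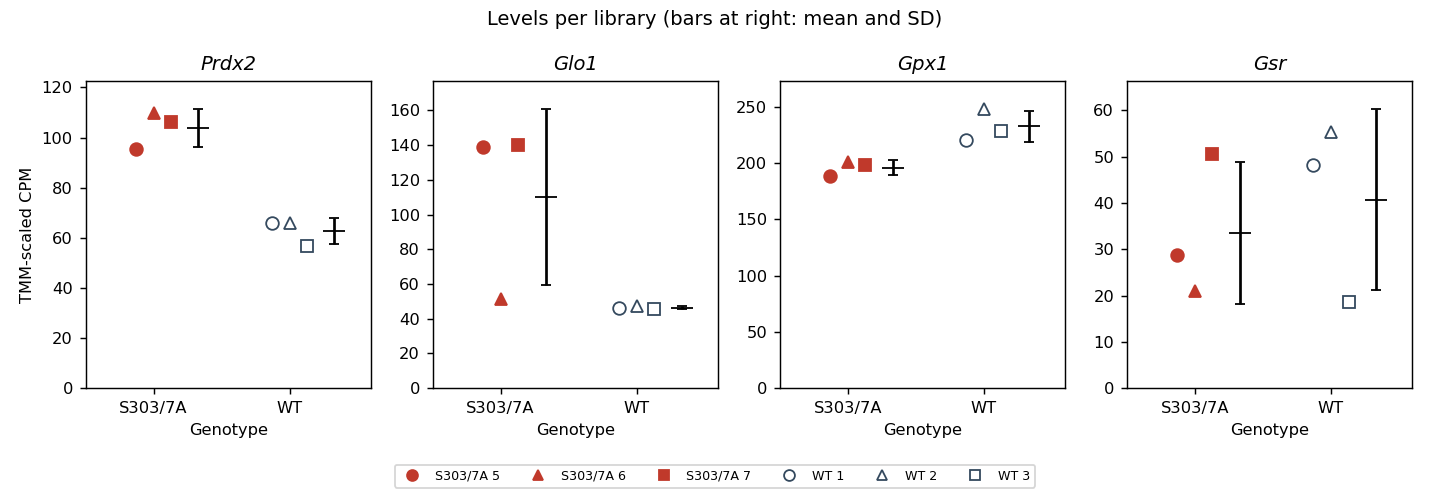
Levels of Prdx2, Glo1, Gpx1 and Gsr in each library in TMM-scaled CPM from 0, with S303/7A at left and WT at right in each panel and the mean and SD over 3 libraries beside the points. Prdx2 separates the genotypes, Glo1 is at 51.4 CPM in S303/7A 6 and near 140 CPM in the other S303/7A libraries, and Gsr spreads within both genotypes.

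The same S303/7A libraries were high for genes next to Glo1. Dnah8, an axonemal dynein gene that overlaps Glo1 on the opposite strand, measured 47.2, 19.4 and 60.2 CPM in S303/7A 5, 6 and 7, against 11.8, 11.9 and 20.3 CPM in WT. The noncoding gene 1700097N02Rik, which overlaps Glo1 on the same strand, was at 7.46, 1.18 and 9.61 CPM in S303/7A, against 1.44, 1.07 and 1.58 CPM in WT. For both, S303/7A 5 and 7 lay above every other library. The overlap lies in the long GENCODE span of Glo1. Dnah8 (30624354 to 30877365) and 1700097N02Rik (30622441 to 30626905) have no overlap with Glo1 taken from its RefSeq start, next to 30612660. The annotation used for counting is not given, so whether their reads were shared with Glo1 is not known. Btbd9, whose start lies 50.4 kb away, was at 59.6, 45.5 and 65.4 CPM in S303/7A, against 54.1, 56.6 and 54.3 CPM in WT. S303/7A 6 was the lowest of the 6 libraries and S303/7A 5 and 7 the highest, over a narrow range. Gm9874 was at 1.47, 0.742 and 1.52 CPM in S303/7A, against 0.587, 1.49 and 0.313 CPM in WT, with overlap.

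Of 32 other annotated genes that start within 1 Mb of Glo1, 15 were tested and 0 passed in edgeR's quasi-likelihood test. Dnah8 and 1700097N02Rik had an unadjusted p under 0.05, with log2 folds of 1.53 ± 0.42 and 2.16 ± 0.68 (SE). DESeq2 called 1700097N02Rik (adjusted p 0.0216), as did edgeR without S303/7A 6 (0.0277). Glp1r, the receptor for glucagon-like peptide 1, was below the count filter and was singled out after its values were seen. It lies 275 kb away with no overlap with Glo1, and measured 3.45, 0 and 5.27 CPM in S303/7A 5, 6 and 7, against 0.174, 0 and 0.068 CPM in WT. Among the tested genes of the stretch other than Glo1, Dnah8, 1700097N02Rik and Btbd9, none had S303/7A 5 and 7 both above all the other libraries. A segment that holds Glo1 is known to be duplicated in some inbred mouse strains. Gene copies were not measured here and the strain of each mouse was not used here, so more copies and more RNA per copy cannot be told apart, and what divides the S303/7A libraries was not tested.

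**Figure D4:**
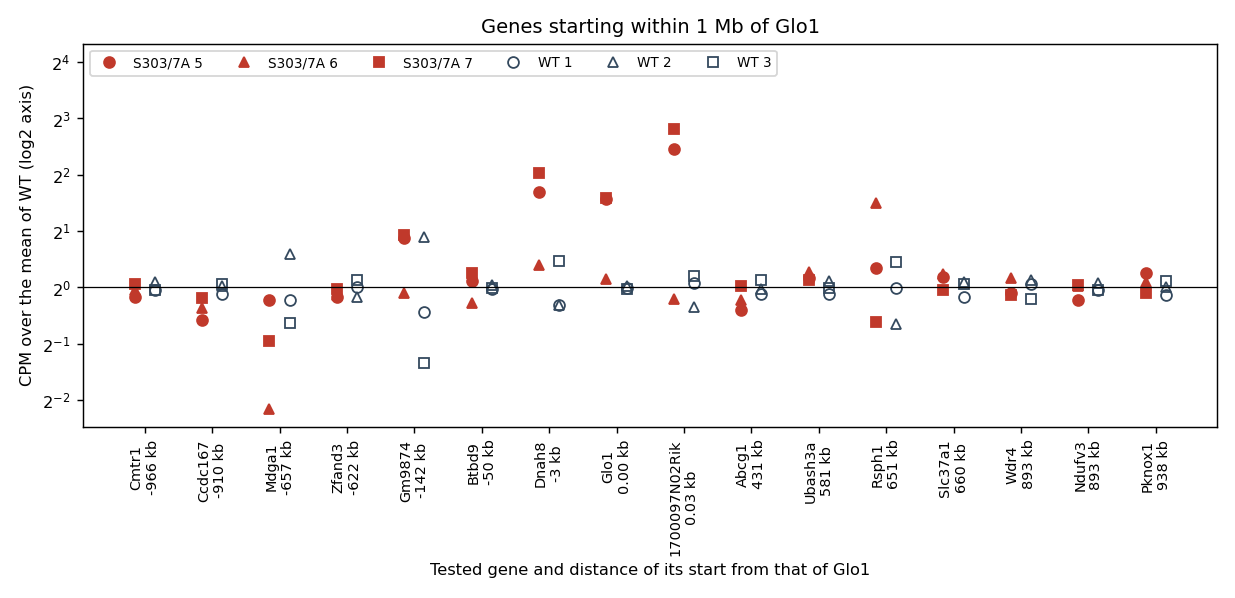
Level in each library over the mean of WT, on a log2 axis, for Glo1 and the 15 tested genes that start within 1 Mb of it, ordered by distance in genome coordinates and not to scale. At Dnah8, Glo1 and 1700097N02Rik the points of S303/7A 5 and 7 stand above those of S303/7A 6 and WT.

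The other genes of this group had small differences. Gpx1, the abundant cytosolic glutathione peroxidase, was at 188, 201 and 198 CPM in S303/7A, against 221, 248 and 229 CPM in WT. Every S303/7A library was below every WT library, at a log2 fold of -0.25 ± 0.07 (SE), which did not pass edgeR's quasi-likelihood test (adjusted p 0.291). It did not pass under any of the 10 alternatives (adjusted p 0.117 to 0.627). The platelet, basophil, neutrophil and red cell marker sums given above were also lower in S303/7A. Cxcr2 made up most of the neutrophil sum and Car1 and Klf1 most of the red cell sum in WT, while the globin genes did not follow that sum. What part these cells had in the Gpx1 difference was not tested. Gpx4, which reduces lipid peroxides, was at 125, 150.4 and 150.5 CPM in S303/7A, against 137, 133 and 134 CPM in WT, and it shares 99.7% of 762 bases with Gpx4-ps2. Glrx, glutaredoxin, was at 23.1, 22.3 and 21.8 CPM in S303/7A, against 31.5, 21.7 and 38.0 CPM in WT. Its log2 fold was -0.44 ± 0.20 (SE), and WT 2 lay at the S303/7A level. Gsto1, an omega-class glutathione transferase, was at 19.5 to 22.8 CPM in S303/7A, against 21.1 to 23.6 CPM in WT (log2 fold -0.05 ± 0.13).

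The enzymes that make and recharge glutathione did not pass. Gclc, the catalytic subunit of the rate-limiting ligase, was at 3.27 to 6.83 CPM in S303/7A, against 4.58 to 5.57 CPM in WT (log2 fold 0.05 ± 0.29, SE). Gclm, its modifier subunit, was at 2.44 to 6.74 CPM in S303/7A, against 2.85 to 4.37 CPM in WT (0.20 ± 0.45). Gss, which adds the last amino acid, was at 29.3, 34.4 and 33.4 CPM in S303/7A, against 32.7, 30.7 and 28.7 CPM in WT, with a log2 fold of 0.08 ± 0.12 (SE). Gsr, glutathione reductase, varied more within each genotype than between them. It measured 28.9, 20.9 and 50.6 CPM in S303/7A 5, 6 and 7, against 48.3, 55.4 and 18.5 CPM in WT 1, 2 and 3, with a log2 fold of -0.28 ± 0.45. The highest library was 2.42 times the lowest in S303/7A and 2.99 times in WT. S303/7A 7, WT 1 and WT 2 lay above the other libraries, as they also did for Scaf4, given below, and the NK cell marker Eomes. Eomes was at 180, 140 and 717 CPM in S303/7A, against 476, 316 and 148 CPM in WT. Scaf4 and Eomes were singled out after their values were seen, and what divides the libraries in this way was not tested.

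Thioredoxins and their reductases had fitted log2 folds of 0.12 or less in size, and none passed. Txnrd1, the cytosolic thioredoxin reductase and an NRF2 target, was at 234, 242 and 223 CPM in S303/7A, against 215, 209 and 221 CPM in WT. Every S303/7A library lay above every WT library, by a narrow margin, at a log2 fold of 0.12 ± 0.06 (SE; edgeR's quasi-likelihood test, adjusted p 0.627). Txnrd2, its mitochondrial counterpart, was at 30.2, 28.3 and 28.7 CPM in S303/7A, against 31.3, 31.7 and 31.4 CPM in WT, below WT in every library, at a log2 fold of -0.11 ± 0.10 (adjusted p 0.809). The thioredoxins themselves had log2 folds of 0.05 ± 0.10 (Txn1, cytosolic) and 0.07 ± 0.06 (Txn2, mitochondrial). Txn1 was at 112 to 138 CPM in S303/7A, against 109 to 125 CPM in WT, and Txn2 at 176 to 182 CPM in S303/7A and 162 to 178 CPM in WT.

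NRF2 and KEAP1 transcripts did not pass, nor did the best known NRF2 targets. Nfe2l2 was at 122, 127 and 117 CPM in S303/7A, against 125, 123 and 126 CPM in WT, a log2 fold of -0.03 ± 0.07 (SE). Keap1 was at 95.5, 87.3 and 99.8 CPM in S303/7A, against 96.5, 101 and 75.5 CPM in WT, a log2 fold of 0.05 ± 0.12. NRF2 is controlled mostly at the protein level, which these data do not measure. Nqo1, a quinone reductase, was close to the limit of detection, with 16, 40 and 22 counts in S303/7A and 24, 25 and 78 counts in WT. The highest library was 2.49 times the lowest within S303/7A and 2.79 times within WT. With these counts and this spread, the Nqo1 log2 fold of -0.11 ± 0.59 leaves large differences undetectable. Hmox1, which breaks down haem and is high in splenic macrophages, was at 7.77, 6.31 and 9.93 CPM in S303/7A, against 8.97, 13.1 and 8.03 CPM in WT, with a log2 fold of -0.32 ± 0.26. WT 2, highest in Hmox1, also had the highest summed monocyte and macrophage markers (10 genes, 9 tested), at 72.1 CPM. Those markers were at 43.3 to 59.9 CPM in S303/7A and 47.1 and 49.5 CPM in WT 1 and 3, and their part in the Hmox1 level was not tested.

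Superoxide dismutases, which turn superoxide into hydrogen peroxide, and catalase, which breaks hydrogen peroxide down, did not pass. Sod1, the cytosolic copper-zinc form, was at 61.1, 75.4 and 66.5 CPM in S303/7A, against 58.7, 58.4 and 61.3 CPM in WT. S303/7A 5 lay just under WT 3, and the log2 fold was 0.19 ± 0.10 (SE; edgeR's quasi-likelihood test, adjusted p 0.629). Scaf4 overlaps Sod1 on the opposite strand and was at 18.7, 15.6 and 80.2 CPM in S303/7A, against 41.0, 28.4 and 12.2 CPM in WT. Sod2, the mitochondrial manganese form, was at 90.9 to 97.0 CPM in S303/7A, against 90.7 to 97.9 CPM in WT. Cat was at 210, 218 and 198 CPM in S303/7A, against 211, 199.7 and 189 CPM in WT, a log2 fold of 0.06 ± 0.07. Per kb of principal transcript, Sod1 was at 106 ± 11.3 CPM in S303/7A and 92.8 ± 2.48 in WT, and Sod2 at 16.0 ± 0.512 in S303/7A and 15.9 ± 0.683 in WT. With all annotated exons merged, Sod1 averaged 17.1 CPM per kb in S303/7A and 14.98 in WT, and Sod2 9.39 in S303/7A and 9.32 in WT, so the size of the gap depends on the length used.

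Ferritin chains, which store iron, were the most abundant members. Fth1, the heavy chain, was at 633, 722 and 672 CPM in S303/7A, against 637, 653 and 735 CPM in WT, with a log2 fold of 0.00 ± 0.08 (SE). Ftl1, the light chain, was at 553, 559 and 621 CPM in S303/7A, against 537, 628 and 582 CPM in WT, with a log2 fold of -0.01 ± 0.08. Ftl1 has near-identical copies, the longest match being Ftl1-ps1 with 99.6% of 910 bases, and the Ftl1 count is uncertain for that reason. The metallothioneins, small metal-binding proteins, were almost silent. Mt1 was at 0.560, 0.209 and 0.792 CPM in S303/7A, against 0.761, 1.25 and 1.46 CPM in WT. S303/7A 7 overlapped WT 1, and the log2 fold of -1.15 ± 0.56 did not pass (edgeR's quasi-likelihood test, adjusted p 0.589). Mt2 had 1, 0 and 0 counts in S303/7A 5, 6 and 7 and 3 counts in each WT library, below the filter.

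The members that supply NADPH did not pass either. G6pdx, which opens the pentose phosphate pathway, was at 120.0, 119 and 104 CPM in S303/7A, against 112, 120.1 and 106 CPM in WT, a log2 fold of 0.02 ± 0.09 (SE). Nnt, the mitochondrial transhydrogenase, was at 102, 75.0 and 74.7 CPM in S303/7A, against 70.3, 54.4 and 100.6 CPM in WT, a log2 fold of 0.16 ± 0.23. The Nnt values of the genotypes overlapped.

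**Figure D5:**
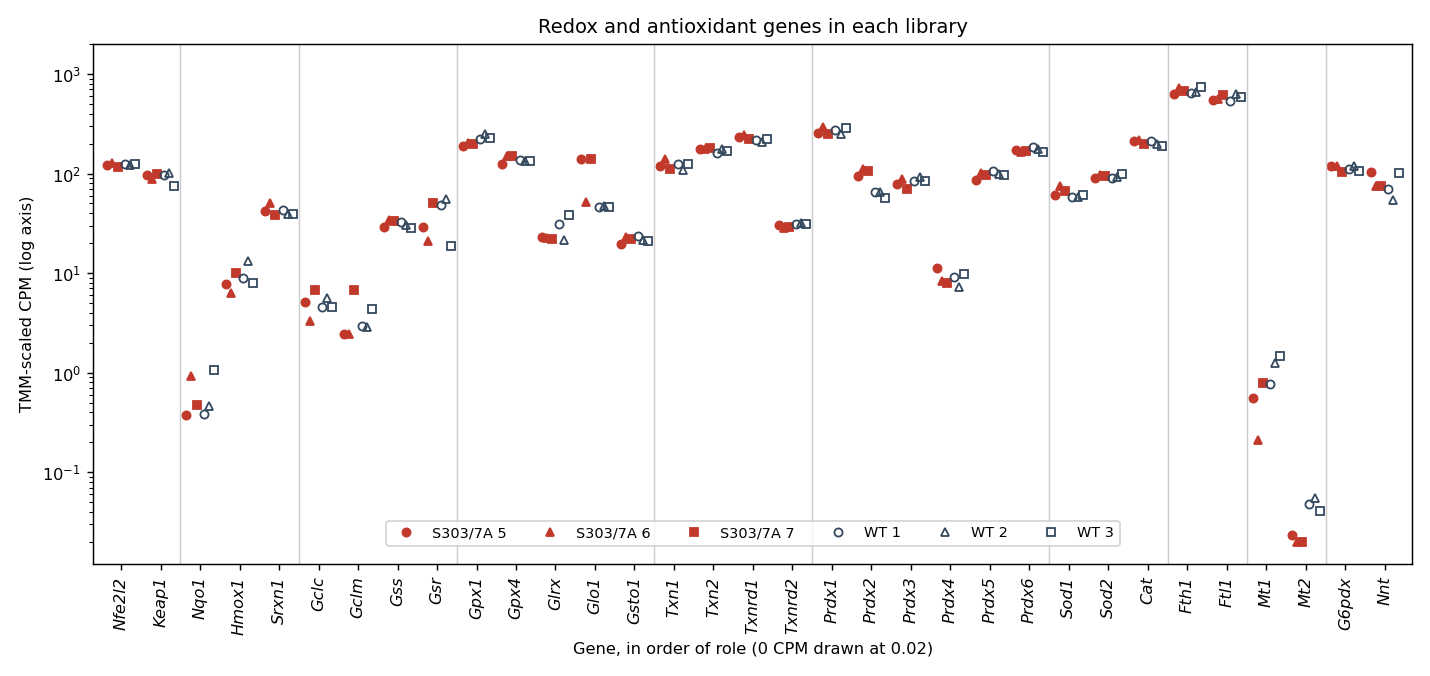
Level of all 33 genes in each library in TMM-scaled CPM on a log axis, in order of role, with S303/7A at the left and WT at the right of each gene. Ferritin chains lie above 500 CPM, 26 genes are at 10 CPM or more in all 6 libraries, and Nqo1, Mt1 and Mt2 lie near or under 1 CPM.

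Of 84 further redox genes listed by pathway, 79 were tested and 0 passed in edgeR's quasi-likelihood test. At an unadjusted p under 0.05 there were 11, 3 higher and 8 lower, against 9.68% of all tested genes, and the median log2 fold of the 79 was -0.0073. The smallest p belonged to Ncf1, a subunit of the NADPH oxidase that makes superoxide in phagocytes. Ncf1 was at 46.6, 45.5 and 67.7 CPM in S303/7A, against 93.4, 91.7 and 84.2 CPM in WT, a log2 fold of -0.75 ± 0.16 (SE) with an adjusted p of 0.167. Every S303/7A library was below every WT library. DESeq2, which called 2.65% of all genes, called Ncf1 (0.000942), and in edgeR it passed with no filter on low counts (0.0373) and with S303/7A 7 left out (0.0359). The neutrophil sum was also lower in S303/7A, as given above. Of its 8 genes, Cxcr2 was at 28.3, 20.8 and 28.5 CPM in S303/7A, against 41.4, 51.8 and 45.4 CPM in WT. Retnlg and Mmp9 were highest in WT 2, at 12.3 and 10.7 CPM. S100a8, S100a9, Ngp, Camp and Ltf did not follow the sum, and each was highest in S303/7A 6, at 0.116 to 2.32 CPM. Ltf, Camp and Ngp were at 0 in at least 1 library of each genotype. The part of other cells in the Ncf1 values was not tested. Rac1, a small GTPase of the same complex, had a log2 fold of 0.34 ± 0.33. It was at 20.9, 20.7 and 48.8 CPM in S303/7A, against 22.8, 24.1 and 24.5 CPM in WT. S303/7A 7 lay above every WT library, and S303/7A 5 and 6 lay below every WT library.

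None of the other pathway lists held a gene that passed. Among NRF2 partners and turnover genes, Mafg, a small MAF partner of NRF2, was at 18.8, 17.6 and 26.5 CPM in S303/7A, against 30.7, 30.5 and 28.7 CPM in WT. Its log2 fold was -0.51 ± 0.17 (SE), while Rbx1 and Bach2 had -0.12 ± 0.10 and 0.25 ± 0.21. In haem, iron and metal handling, Aco1 (0.25 ± 0.08) and Slc11a2, an iron importer (0.32 ± 0.11), lay above WT in every library. Slc40a1, the iron exporter, had -1.01 ± 0.38. It was at 5.95, 4.43 and 5.91 CPM in S303/7A, against 6.58, 17.8 and 8.54 CPM in WT, with WT 2 highest as for the macrophage markers. Among glutathione transferases and related genes, 7 of 24 log2 folds were above 0, against 51.7% of all tested genes, and the smallest p values were those of Mgst2 (-0.53 ± 0.20), Gstm5 (-1.63 ± 0.61) and Gpx8 (-0.46 ± 0.27). In the NADPH-producing list the smallest p values were those of Taldo1 (-0.18 ± 0.07), Nadk (-0.13 ± 0.10) and Me2 (0.08 ± 0.07). Among thioredoxin-fold and methionine sulfoxide genes, 7 of 9 log2 folds were above 0, and the smallest p values were those of Txndc17 (0.14 ± 0.11), Msrb3 (1.47 ± 1.35) and Msrb1 (-0.23 ± 0.28). In the remaining list they were those of Sesn2 (0.30 ± 0.11), Aldh2 (-0.28 ± 0.11) and Sesn3 (0.41 ± 0.17). Slc7a11, the cystine transporter gene, Mgst1, Me1, Mt3 and Sod3 were below the filter.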

How the data were processed

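RNA of sorted splenic NK cells was measured in 6 libraries, made with the SMART-seq HT kit per the labels' protocols. The submitters' processing notes name Trimmomatic, STAR, DESeq2, featureCounts and the build GRCm38 (mm10). What version, annotation release or strand setting applied is not given in the sources used here. Raw counts per gene, as deposited by the authors, were tested, and the deposited normalized values were not used. Members, lists and tests were chosen with earlier results of these data known. Every member is reported, and of the other redox genes up to 3 per list with the smallest p, except 1 that is not reported here.

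The test came from edgeR 4.0.16 (R 4.3.3): filterByExpr (minimum count 10, minimum total 15), TMM and the quasi-likelihood test over all 16480 genes, with Benjamini-Hochberg adjustment and a threshold of 0.05. DESeq2 1.42.0 and limma 3.58.1 (voom) were alternatives, and the test was tested on simulated counts. SE is the absolute log2 fold over the root of the F statistic. Fold and p rest on 3 mice per genotype, with no batch in the labels. Positions and lengths are from GENCODE M21, which held 96.4% of the gene names, and copies were sought with BLAST+ 2.17.0 (identity of at least 95%, 200 bases).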

Additional observations from a re-analysis of the deposited data

How the results depend on the processing

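Prdx2 passed with the size factors of DESeq2, without the low-count filter, in DESeq2 and in limma-voom, and members called numbered 1 in each. Leaving out 1 library gave 0 to 1 members called, the 1 being Glo1 without S303/7A 6, and Prdx2 log2 folds of 0.66 to 0.78. All tested genes called numbered 171 without the filter, 437 in DESeq2, 38 in limma-voom and 5 to 57 with 1 library left out. The split was 38 higher and 19 lower without S303/7A 6, against 22 higher and 38 lower with all libraries. Other redox genes called numbered 1 without the filter, 2 in DESeq2 and 0 to 1 with 1 library left out. Genes near Glo1 called numbered 1 in DESeq2 and 0 to 1 with 1 library left out. The members' median log2 fold ran from -0.021 to 0.026 with 1 library left out, within the spread between libraries. In an alternative added after the data were seen, merged exon length gave Prdx2 34.0 in place of 64.4 CPM per kb in S303/7A.

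Of 320 member values under alternatives, 31 had the other sign. None of these was called, and they ran from -0.47 to 0.49. With all libraries, the log2 folds of the 14 genes concerned were at most 0.20 in size. Fth1 was at -0.0060 without the filter and -0.00030 in limma-voom. With 1 library left out, log2 folds ranged as follows: Fth1 -0.049 to 0.067, Nqo1 -0.59 to 0.49, Gsto1 -0.096 to 0.019, Prdx1 -0.090 to 0.029, Prdx4 -0.12 to 0.16, Ftl1 -0.069 to 0.037, G6pdx -0.022 to 0.079, Nnt -0.033 to 0.43, Srxn1 -0.018 to 0.19, Txn1 -0.044 to 0.11, Sod2 -0.017 to 0.045, Gclc -0.22 to 0.29, Gclm -0.47 to 0.44 and Keap1 -0.066 to 0.12. These members have no direction that holds over the alternatives. No paired analysis was possible because the genotypes share no replicate numbers. The smaller counts of Nqo1, Gclm, Mt1 and Mt2 limit what could be seen of them, and 3 mice per genotype limit the rest.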
